A study of Mus musculus with 12 samples.

Results

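The clustered replication-dependent histone genes were taken as the protein-coding genes of GENCODE M21 (GRCm38) whose symbol starts with Hist1h, Hist2h, Hist3h or Hist4, and 64 of the 22467 transcripts in the deposited table met this rule. They encode the linker histone H1 (6 genes) and the core histones H2A (17 genes), H2B (16 genes), H3 (12 genes) and H4 (13 genes). The Hist1 cluster on chromosome 13 held 52 of them, the Hist2 cluster on chromosome 3 held 9, Hist3 on chromosome 11 held 2, and Hist4h4 lies on chromosome 6. All but 2, Hist1h2bc and Hist1h2be, are annotated with a single exon.

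Core histones form the octamer around which DNA is wrapped, and H1 binds the DNA between nucleosomes. The replication-dependent genes are copied in arrays so that enough histone can be made in S phase. Their mRNAs have no poly(A) tail and end just after a short stem-loop that is bound by SLBP, the stem-loop binding protein needed for their processing, translation and decay.

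The study compared whole E8.5 embryos that were Rpl10a +/+ (wild type, 3 embryos) with whole E8.5 embryos that were Rpl10a LOF/LOF (3 embryos), on a C57BL/6 background. The LOF allele, made by CRISPR/Cas9, removes part of the first intron of Rpl10a, a gene for a protein of the large ribosomal subunit. The deletion leads to an extension after the initial methionine, and the allele is hypomorphic. Each embryo gave 1 library of ribosome-protected fragments (RPF) by ribosome profiling and 1 RNA-seq library, and every embryo of both genotypes was dissected in cycloheximide, which holds ribosomes in place.

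RPF libraries held 7041357 to 10863499 counts and RNA libraries 9132521 to 26561843, and the 64 genes took 0.684% to 0.812% of the RPF counts and 0.557% to 0.691% of the RNA counts of a library. All 7 markers of the E8.5 embryo that were listed (T, Tbx6, Meox1, Sox2, Nkx2-5, Kdr and Foxa2) were present in the wild-type RNA. Rpl10a itself fell in Rpl10a LOF/LOF embryos, by 0.64 ± 0.07 on the log2 scale in RPF (± SE, adjusted p = 0.00689 by the quasi-likelihood test of edgeR, Benjamini-Hochberg adjusted) and by 0.23 ± 0.06 in RNA (adjusted p = 0.0678). The embryos also differed in ways other than Rpl10a. Summed Y-linked RPF counts (Ddx3y, Eif2s3y, Kdm5d and Uty) were 163 to 183 CPM (counts scaled to library size) in the 3 wild-type embryos, 154 CPM in LOF replicate 2, and 9.09 and 0.384 CPM in LOF replicates 1 and 3. At an adjusted p under 0.1 by edgeR, 7 of 8 visceral endoderm and yolk sac markers fell in RPF and 8 in RNA. Over all transcripts, 2.19% were called in RPF and 5.02% in RNA. The summed RNA level of these 8 was 3130 to 3936 CPM in wild-type and 879 to 2204 CPM in LOF embryos. All 5 primitive red blood cell markers had a log2 fold change above 0 in RPF and in RNA, with medians of 1.34 and 1.08. By edgeR, 5 in RPF and 4 in RNA had an unadjusted p under 0.05. At an adjusted p under 0.1, 2 rose in RPF and 1 in RNA. Their summed RNA level was 397 to 1683 CPM in wild-type and 1506 to 2521 CPM in LOF embryos. Of the markers of maternal decidua and blood (4 of 7 tested) and of trophoblast (3 of 4 tested), 0 passed in RPF or RNA by edgeR, with 1 gene of each list at an unadjusted p under 0.05 in RPF and 0 in RNA. A covariate for the Y-linked level was used in gene-by-gene fits given below. The part of the other differences in the histone results was not tested, and in whole embryos fewer cells of a type and less RNA per cell cannot be told apart.

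The stem-loop that ends these mRNAs is shown first because it marks where the mature mRNA stops, which the annotated transcripts often do not. A search of the bases after each stop codon for a 16-base stem-loop (GG, 3 bases of any kind, TTT, 2 of any kind, A, 3 of any kind and CC, with 6 pairs between its ends, G-T pairs allowed, sense strand only) found it in 43 of the 64 genes (67.2%), 21 to 58 bases past the stop codon. Of the 49 with an annotated 3′UTR of 30 bases or more, 43 held it. It was found in 30 of 19482 other transcripts (0.154%), only 2 of them within 60 bases of the stop codon. The sequences are from GENCODE M21 transcripts of GRCm38, 5′ to 3′ on the sense strand, with the stem-loop in capitals and 5 bases of flank on each side in lower case.
Hist1h1d (H1, plus strand, stem-loop at chr13:23555787-23555802): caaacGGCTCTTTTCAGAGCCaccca
Hist1h2bb (H2B, plus strand, chr13:23747203-23747218): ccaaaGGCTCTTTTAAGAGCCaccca
Hist1h3c (H3, minus strand, chr13:23745047-23745062): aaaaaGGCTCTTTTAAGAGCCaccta
Hist2h4 (H4, minus strand, chr3:96262939-96262954): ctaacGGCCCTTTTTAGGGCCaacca
Hist4h4 (H4, minus strand, chr6:136803998-136804013): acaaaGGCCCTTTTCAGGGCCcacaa

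The stem differed by type. All 32 stem-loops of H1, H2A, H2B and H3 genes began GGCTC and ended GAGCC, whereas the 11 of H4 genes had either GGCCC with GGGCC (9 genes) or GGTCC with GGACC (2 genes).

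Copies of one histone type share much of their coding sequence. RPF counts are assigned by the position of the ribosomal A site within the coding sequence, without its first 15 and last 5 codons. Around each such position, the 28-base window a footprint would cover was compared with every transcript of the table. The share of positions whose window lay in that gene alone had a median of 80.5% for H1, 8.48% for H2A, 12.7% for H2B, 7.33% for H3 and 16.5% for H4. The H4 genes show how small the differences are. The window of coding bases 66 to 93, chosen because it separates the most H4 copies (12 different sequences among 13 genes), is printed for 6 of them, in lower case with the bases that differ from Hist1h4m in capitals.
Hist1h4m (plus strand, chr13:21811849-21811876): gctgcgcgataacatccagggcatcacg
Hist1h4n (minus strand, chr13:21832066-21832093): gctgcgcgataacatccagggcatcacg
Hist1h4k (minus strand, chr13:21750413-21750440): gctgcgcgataacatccagggcatcacC
Hist1h4j (plus strand, chr13:21735161-21735188): gctgcgcgaCaacatccagggcatcacg
Hist2h4 (minus strand, chr3:96263212-96263239): CTtgcgTgaCaacatccagggTatcacC
Hist4h4 (minus strand, chr6:136804287-136804314): TctCcgcgaCaacatccagggcatTacC

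Hist1h4m and Hist1h4n have the same 28 bases here and no window of their own anywhere in the counted sequence, while Hist2h4 differs at 6 bases and Hist4h4 at 5.

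For 12 genes no counted position had a window of its own, and 11 of them had 0 RPF counts in all 6 RPF libraries. The 11 were Hist1h2ad, Hist1h2ag, Hist1h2ao, Hist1h2ap, Hist2h2aa1, Hist1h2bc, Hist2h3b, Hist2h3c1, Hist2h3c2, Hist1h4m and Hist1h4n. The remaining one, Hist1h2ah, had 0 to 2 counts. The shared windows did not lie in histone copies alone. Gm20634, a processed transcript outside the histone list, held 100% of the coding windows of Hist2h2aa1, Hist2h3c1 and Hist2h3c2. It also held 94.5% of those of Hist2h3b. The annotation of Gm20634 overlaps Hist2h2aa1 and Hist2h3c1 on the same strand. Of the same 12 genes, 7 had more than 100 RNA counts in every RNA library, up to 2115 counts for Hist1h2ap, RNA reads being counted over the whole transcript with its UTRs. All 52 genes with at least 1 window of their own had RPF counts. How reads that align to several transcripts were handled is not given in the sources used here, and the low counts of these 12 genes (0 in 11 of them) therefore say nothing about whether their mRNAs were translated.

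**Figure D1:**
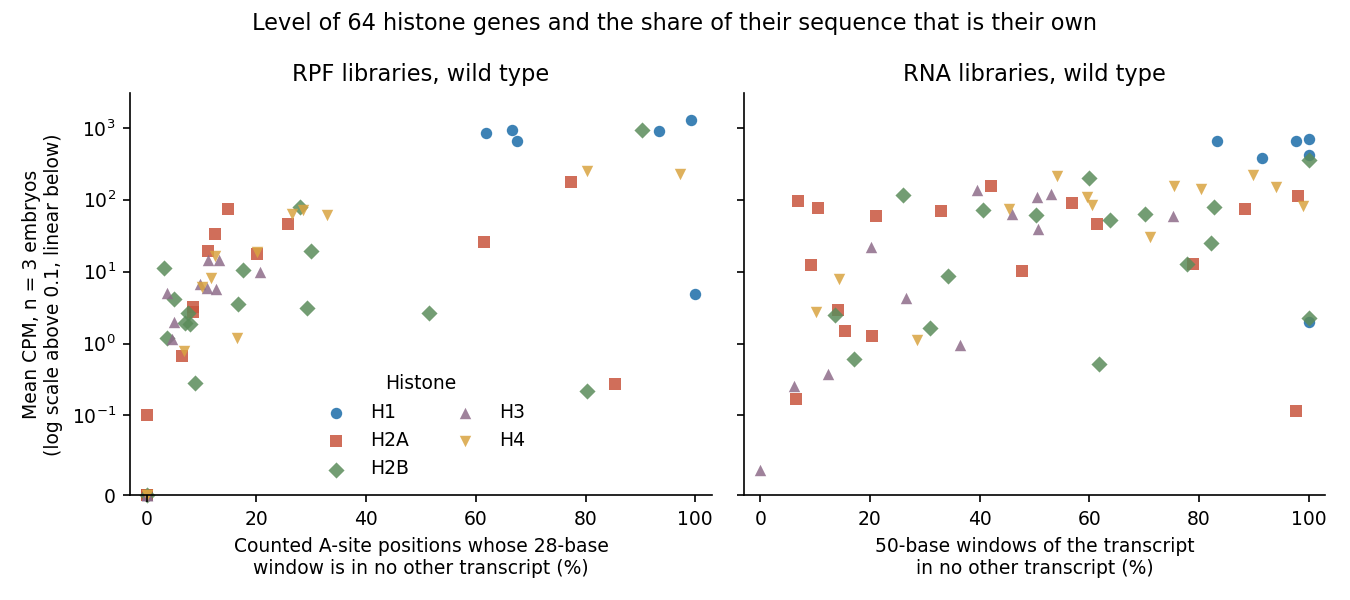
Mean level of each of the 64 histone genes in the 3 wild-type embryos (CPM, log scale above 0.1 and linear below) against the share of its own sequence found in no other transcript of the table (percent), in RPF libraries by 28-base windows around counted A-site positions (left) and in RNA libraries by 50-base windows of the transcript (right). The genes at 0% on the left sit at or near 0 CPM, while genes with a low share on the right reach 94.5 CPM (Hist1h2ap).

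In 14 genes, 50% or more of the coding windows were found nowhere else, namely the 6 H1 genes, Hist1h2aa, Hist2h2ab, Hist3h2a, Hist1h2ba, Hist2h2bb, Hist2h2be, Hist2h4 and Hist4h4. They carried 90.6% of the histone RPF counts in wild-type embryos but 54.2% of the histone RNA counts. No H3 gene was among them. These windows were compared by exact match. With 1 mismatch allowed, the share of counted positions in the 14 ran from 43.0% for Hist1h2ba to 99.1% for Hist1h1t. It was 47.4% for Hist2h4, 49.4% for Hist2h2ab, 67.6% for Hist2h2bb and 73.9% for Hist4h4. For H2B, Hist2h2bb alone gave 86.8% of the RPF sum, and for H4, Hist2h4 and Hist4h4 together gave 66.1%, so the RPF sums of these types describe mainly these genes.

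Of the 64 genes, 49 passed the filter (0.75 CPM exceeded in 3 or more of the RPF libraries) and were tested between genotypes, 44 of them above it in all 6. No gene passed through 1 genotype alone. The 15 that did not pass were the 12 above, the low Hist1h2bp, and Hist1h2aa and Hist2h2be, which had few counts (1 to 5 and 1 to 4 RPF counts per library) although most of their windows were their own.

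The comparison of genotypes asks whether the Rpl10a LOF/LOF genotype goes with a change in the ribosomes on histone mRNAs, in the mRNAs, or in the ratio of the 2. Summed over all 64 genes, RPF was higher in Rpl10a LOF/LOF embryos and RNA was not. The summed RPF level was 6956, 6843 and 6841 CPM in wild-type replicates 1, 2 and 3 and 8128, 7925 and 8054 CPM in LOF replicates 1, 2 and 3. Every LOF embryo was above every wild-type embryo, and the difference of 16.8% (0.22 on the log2 scale) was far larger than the spread within a genotype, for which the SD over 3 embryos was 66.2 CPM (wild type) and 102 CPM (LOF). The summed RNA level was 6766, 5675 and 7113 CPM in wild-type and 6367, 7052 and 6451 CPM in LOF embryos. These RNA values overlapped between genotypes, with a difference of 1.98% (0.03 on the log2 scale). The ratio of RPF to RNA was 1.03, 1.21 and 0.962 in wild-type and 1.28, 1.12 and 1.25 in LOF embryos. It was 14.5% higher on average, but LOF replicate 2 lay below wild-type replicate 2, so that the ratio overlapped. Its log2 difference of 0.20 ranged from 0.13 to 0.29 with 1 embryo omitted. With any 1 embryo omitted the RPF difference lay between 0.22 and 0.23, and the part of the Y-linked difference in it was not tested.

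By type, the RPF sum was higher in every LOF embryo than in every wild-type embryo for H1 (4614 ± 76.3 CPM in wild-type and 5420 ± 137 CPM in LOF embryos, mean ± SD, n = 3), H2B (1075 ± 23.2 and 1306 ± 109 CPM), H3 (65.3 ± 3.32 and 78.3 ± 7.95 CPM) and H4 (728 ± 10.7 and 814 ± 22.9 CPM). The increases were 17.4% for H1, 21.2% for H2B, 19.5% for H3 and 11.8% for H4. The H2A sum overlapped between genotypes. It was 383, 402 and 409 CPM in wild-type and 511, 353 and 392 CPM in LOF embryos, so that 1 LOF embryo was above the wild-type range, 1 below it and 1 within it. In wild-type embryos 62.7% of this sum came from Hist3h2a and Hist1h2ab. Gene by gene, the median RPF log2 fold change was 0.23 for the 10 H2A genes tested (8 of 10 above 0), beside 0.23 for H1 (6 of 6), 0.25 for H2B (10 of 13), 0.11 for H3 (8 of 9) and 0.19 for H4 (10 of 11). Over all tested transcripts, 50.9% were above 0 in RPF. RNA sums overlapped between genotypes for all 5 types, with differences of 5.04% for H1, -1.47% for H2A, 3.38% for H2B, -6.15% for H3 and -0.19% for H4. With 1 embryo omitted the RNA differences changed sign for H1, H2A, H2B, H4 and the sum of all genes, whose log2 difference ranged from -0.068 to 0.095, and that of H3 stayed negative. The RPF/RNA ratio overlapped for every type but H3, at 0.115, 0.133 and 0.107 in wild-type and 0.138, 0.137 and 0.179 in LOF embryos. The H3 ratio rests on genes with at most 20.7% of their positions to themselves and its log2 difference ranged from 0.22 to 0.44 over fits that each lacked 1 embryo. Since the sums were read over genes chosen by name, no p-value is given for them.

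**Figure D2:**
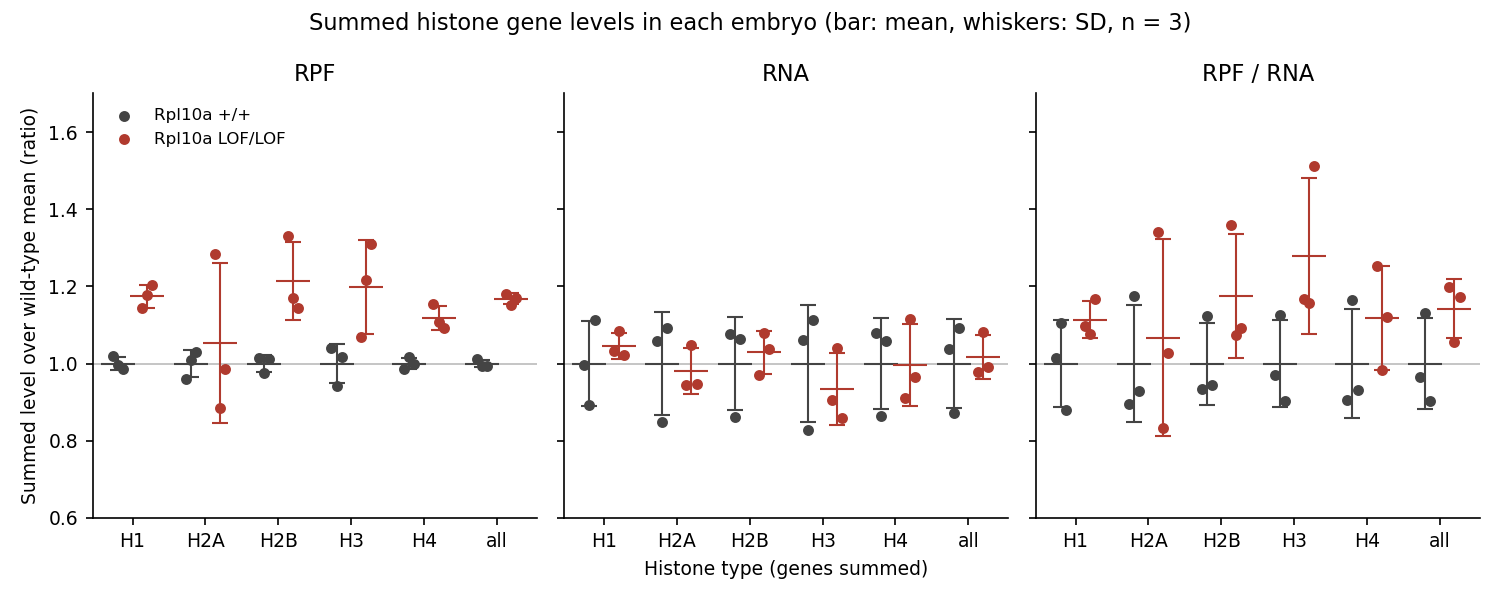
Summed level of the histone genes of each type, and of all 64, in each embryo, divided by the wild-type mean (ratio, vertical axis), for RPF, RNA and RPF over RNA. Points are embryos, the bar is the mean and the whiskers are the SD (n = 3), with wild type in grey and Rpl10a LOF/LOF in red. In RPF the genotypes separate for H1, H2B, H3, H4 and the total, and in RNA they overlap for every type.

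Gene by gene, 3 of the 49 tested genes rose in RPF at an adjusted p under 0.1, against 2.19% of all 12576 transcripts tested (276 called) and 1.05% called as higher. All 3 were linker histone genes, Hist1h1c, Hist1h1e and Hist1h1b. The same 3 and Hist2h2bb passed with DESeq2 (4 of 49, against 2.01% of all transcripts) and with limma-voom (4 of 49, against 2.62%). Limma-voom with surrogate variables called 15 of the 49, these 4 included, against 10.4% of all transcripts. None fell. The median RPF log2 fold change of the 49 was 0.22, beside 0.0036 over all transcripts, and 42 of the 49 (85.7%) were above 0, beside 50.9% of all. In 15 of the 49, every LOF embryo was above every wild-type embryo in RPF, against 9.92% of all transcripts, and in 0 of the 49 was every LOF embryo below, against 9.45%. Histone genes share reads, a cluster and a time of expression, so these counts are not independent of each other.

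The H1 genes encode linker histone subtypes, and 5 of the 6 were abundant in the embryo. Hist1h1c (chr13:23738808-23740367, plus strand) had 660, 653 and 634 RPF CPM in wild-type and 749, 795 and 826 CPM in LOF embryos. This was an increase of 21.7% (0.28 ± 0.06 on the log2 scale, ± SE, adjusted p = 0.0663 by edgeR). Hist1h1b (chr13:21779883-21780625, minus strand) had 959, 883 and 885 CPM in wild-type and 1088, 1054 and 1201 CPM in LOF embryos, an increase of 22.6% (0.29 ± 0.07, adjusted p = 0.0841). Hist1h1e (chr13:23620629-23622558, minus strand) had 967, 921 and 880 CPM in wild-type and 1068, 1098 and 1167 CPM in LOF embryos, an increase of 20.4% (0.27 ± 0.06, adjusted p = 0.0872). In each of the 3 the genotypes did not overlap. In RNA the same 3 genes overlapped between genotypes, with log2 fold changes of 0.15 ± 0.08, 0.06 ± 0.08 and 0.09 ± 0.08 (adjusted p = 0.371, 0.783 and 0.635 by edgeR). With 1 embryo omitted, these RNA values ran from 0.071 to 0.24 for Hist1h1c, -0.021 to 0.15 for Hist1h1b and 0.015 to 0.18 for Hist1h1e.

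The other abundant H1 genes differed in the same direction without passing the threshold. Hist1h1a (chr13:23763666-23764406, plus strand), the histone gene with the highest RPF level, had 1243, 1282 and 1328 CPM in wild-type and 1484, 1474 and 1375 CPM in LOF embryos (0.17 ± 0.06, adjusted p = 0.249 by edgeR). Hist1h1d (chr13:23553262-23560686, plus strand), named after its values were seen, had 866, 847 and 818 CPM in wild-type and 883, 1003 and 977 CPM in LOF embryos (0.18 ± 0.07, adjusted p = 0.265). Both were higher in 3 of 3 LOF embryos than in any wild-type embryo. Hist1h1t (chr13:23695814-23696725, plus strand), the H1 subtype of the testis, had 4.30, 5.27 and 5.32 RPF CPM in wild-type and 5.25, 5.93 and 5.61 CPM in LOF embryos and overlapped between genotypes (0.18 ± 0.17, adjusted p = 0.696 by edgeR). The RPF log2 fold change of Hist1h1t ran from 0.084 to 0.24 with 1 embryo omitted. The H1 genes are the part of the family least touched by shared reads, with 61.9% to 100% of their positions to themselves. The annotated span of Hist1h1e overlaps that of the H2B gene Hist1h2be on the same strand. The overlap lies past the Hist1h1e stem-loop, outside its counted coding sequence, and RNA reads from the overlap cannot be assigned to one of them.

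Calls of single H1 genes depended on the embryos used, as did calls over all transcripts. No histone gene passed in RPF without wild-type replicate 1, 2 or 3, when 0.0954%, 0.0318% and 1.20% of all transcripts passed by edgeR, or without LOF replicate 3, when 0.318% passed. Without LOF replicate 1, 7 of the 49 passed against 1.52% of all transcripts, and without LOF replicate 2, 5 of the 49 passed against 11.5%. With any 1 embryo omitted, the RPF log2 fold change lay between 0.25 and 0.32 for Hist1h1c, 0.24 and 0.33 for Hist1h1b, and 0.23 and 0.30 for Hist1h1e. With a covariate for the Y-linked level the log2 fold changes of Hist1h1c, Hist1h1b and Hist1h1e were 0.26, 0.19 and 0.23 and none passed (adjusted p = 0.433, 0.644 and 0.582 by edgeR), nor did any other histone gene, against 0.175% of all transcripts.

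Among the core histones, the genes with most of their sequence to themselves are given first. Hist2h2bb (chr3:96269752-96270132, plus strand), an H2B gene with 90.3% of its positions to itself, had 944, 907 and 948 RPF CPM in wild-type and 1270, 1087 and 1054 CPM in LOF embryos. The genotypes did not overlap, and the difference was 21.8% (0.28 ± 0.08, adjusted p = 0.117 by edgeR). Its RNA was 380, 321 and 367 CPM in wild-type and 367, 405 and 426 CPM in LOF embryos (0.17 ± 0.07, adjusted p = 0.282). Hist2h2bb passed the threshold in RPF with DESeq2, limma-voom, limma-voom with surrogate variables, without the filter, and without LOF replicate 2. The H4 gene Hist4h4 (chr6:136801553-136804415, minus strand) had 212, 228 and 240 CPM in wild-type and 261, 254 and 251 CPM in LOF embryos (0.17 ± 0.07, adjusted p = 0.276 by edgeR). Hist2h4 (chr3:96261682-96263311, minus strand), the other H4 gene of this kind, had 259, 264 and 239 CPM in wild-type and 292, 291 and 285 CPM in LOF embryos (0.19 ± 0.06, adjusted p = 0.213). In both, all 3 LOF embryos were above all 3 wild-type embryos.

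Hist3h2a (chr11:58954685-58956830, plus strand), the most abundant H2A gene in RPF and 77.3% its own, overlapped between genotypes. It had 186, 171 and 171 RPF CPM in wild-type and 208, 153 and 171 CPM in LOF embryos, a log2 fold change of 0.00995 ± 0.10 (adjusted p = 0.979 by edgeR) whose sign was negative under limma-voom, with the Y-linked covariate and in several other settings. Hist2h2ab, named after its values were seen, had 28.7, 27.4 and 21.4 RPF CPM in wild-type and 26.2, 26.0 and 25.3 CPM in LOF embryos. Hist1h2ab (chr13:23751126-23751598, plus strand), the second H2A gene by RPF, varied by more than the genotypes differed, with 50.4, 81.2 and 89.9 CPM in wild-type and 127, 45.8 and 65.1 CPM in LOF embryos, and the sign of its fold change turned under limma-voom with or without surrogate variables, with the Y-linked covariate, and without wild-type or LOF replicate 1. Of the other 7 H2A genes tested, 6 were above 0 and Hist1h2af was below (-0.29 ± 0.13, adjusted p = 0.352 by edgeR). In 3 of them, named after their values were seen, every LOF embryo was above every wild-type embryo in RPF. These were Hist1h2an (0.56 ± 0.20), Hist1h2ae (0.44 ± 0.20) and Hist2h2ac (0.33 ± 0.13), and none passed (adjusted p = 0.240, 0.368 and 0.285 by edgeR). Whether the fold change of H2A differs from that of the other types was not tested.

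The remaining core histone genes described here shared more of their sequence, with at most 28% of their positions to themselves. Hist1h2bb (chr13:23746734-23747241, plus strand) had 79.6, 80.5 and 77.8 RPF CPM in wild-type and 86.6, 94.5 and 96.2 CPM in LOF embryos, which did not overlap (0.22 ± 0.07, adjusted p = 0.197 by edgeR). Hist1h3a (chr13:23761853-23762386, minus strand), the H3 gene with the largest share of its own windows, overlapped between genotypes in RPF, at 8.08 to 11.05 CPM in wild-type and 8.94 to 12.5 CPM in LOF embryos (0.11 ± 0.17, adjusted p = 0.833 by edgeR). Hist1h3e (chr13:23561534-23562369, minus strand) also overlapped, at 14.4 ± 1.10 and 14.5 ± 3.52 CPM, and the sign of its log2 fold change of 0.0084 turned in several settings. Hist1h3c (chr13:23744973-23745602, minus strand) had 13.6, 16.2 and 13.2 CPM in wild-type and 12.4, 24.6 and 28.7 CPM in LOF embryos, so that 2 LOF embryos were high and 1 was below the wild-type range (0.64 ± 0.24, adjusted p = 0.269). Its log2 fold change was 0.39 without LOF replicate 3 and 0.90 without LOF replicate 1.

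In RNA, 1 of the 49 genes passed the threshold, against 5.02% of all transcripts. This was the H2A gene Hist1h2ak (chr13:21753435-21753827, minus strand), with 9.59, 9.98 and 11.2 CPM in wild-type and 12.3, 14.7 and 14.5 CPM in LOF embryos, an increase of 33.0% (0.41 ± 0.11, adjusted p = 0.0841 by edgeR). The genotypes did not overlap in RNA but did in RPF, at 43.9 to 46.4 CPM in wild-type and 42.9 to 55.8 CPM in LOF embryos. The call was lost with DESeq2 (adjusted p = 0.150), with surrogate variables, with the Y-linked covariate and without wild-type replicate 1 or 2 or LOF replicate 2 or 3. In these settings its log2 fold change was 0.41 with DESeq2, 0.40 with surrogate variables and 0.47 with the Y-linked covariate. It lay between 0.36 and 0.49 with any 1 embryo omitted. The median RNA log2 fold change of the 49 genes was 0.0087, beside -0.0018 over all transcripts, and 27 (55.1%) were above 0, beside 49.4% of all. In 5 of the 49, every LOF embryo was above every wild-type embryo in RNA, against 10.2% of all transcripts, and in 0 was every LOF embryo below, against 12.6%.

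For the ratio of RPF to RNA, tested over all 12 libraries by an interaction term between library type and genotype, 0 of the 49 genes passed by edgeR, as did 0.00% of all transcripts. At an unadjusted p under 0.05 there were 4 of the 49 (8.16%), beside 4.44% of all transcripts, and DESeq2, limma-voom and limma-voom with surrogate variables also called 0. The median log2 change of the ratio was 0.18, beside 0.0066 over all, and 39 of the 49 genes (79.6%) were above 0, beside 52.0% of all transcripts. All 6 H1 genes were above 0, between 0.13 and 0.24, and none passed. With 1 embryo omitted, that of Hist1h1c ranged from 0.026 to 0.21, that of Hist1h1e from 0.056 to 0.25, that of Hist1h1b from 0.13 to 0.33 and that of Hist1h1t from 0.080 to 0.32.

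**Figure D3:**
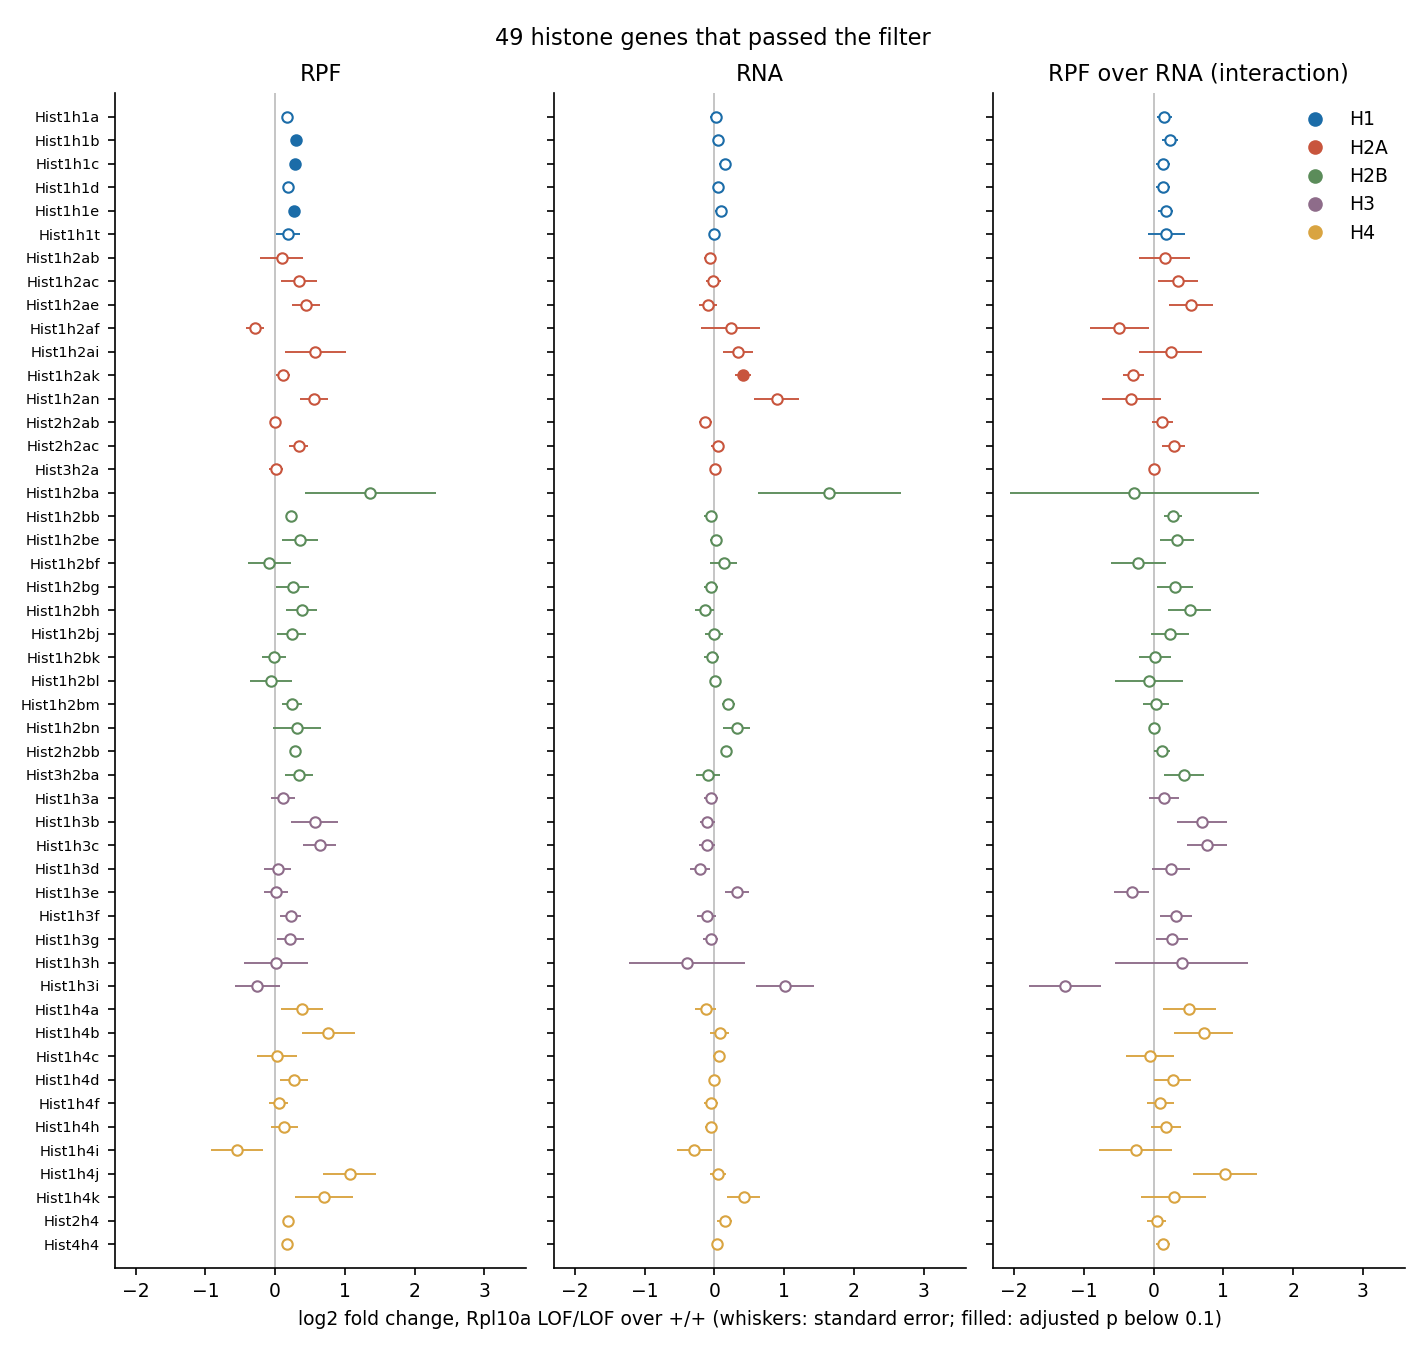
Log2 fold change of each of the 49 tested histone genes in Rpl10a LOF/LOF over wild-type embryos (horizontal axis) in RPF, RNA and RPF over RNA, coloured by histone type, with the standard error as whiskers (none is drawn where the change was under 0.005). Filled points have an adjusted p under 0.1 and are Hist1h1b, Hist1h1c and Hist1h1e in RPF and Hist1h2ak in RNA.

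A few histone genes differed widely between embryos of 1 genotype. The 8 genes with the largest fold between embryos of a genotype in RPF, chosen after the values were seen, were Hist1h2ba, Hist1h4b, Hist1h3b, Hist1h4k, Hist1h4i, Hist1h3h, Hist1h2ab and Hist1h4j, at 2.45-fold or more with 0.1 CPM added to each level. Of 9567 transcripts in their range of mean RPF level, 4.36% reached this fold and the median was 1.33-fold, but the 8 genes set that fold themselves, so nothing is read from this share. Some of them had few counts, such as Hist1h4k with 3 to 16 and Hist1h3h with 6 to 18 RPF counts. Hist1h2ba, an H2B gene known from the male germ line, had RPF counts of 86, 2 and 0 in wild-type and 4, 88 and 113 in LOF replicates 1, 2 and 3. Its RNA counts were 12, 3 and 2 in wild-type and 1, 34 and 14 in LOF embryos. The same 3 embryos, 1 wild-type and 2 LOF, were high in both libraries, and the other 3 were near 0, so the split did not follow genotype.

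Hist1h4i was high in wild-type replicate 1 alone, with 33.8 RPF CPM against 10.8 to 14.9 CPM in the other 5 embryos. Its RNA was also high there, at 45.9 CPM against 20.2 to 27.5 CPM. In that embryo the RNA of the neighbouring copies Hist1h4m and Hist1h4n was also unlike the rest. Hist1h4m had 0 RNA counts in wild-type replicate 1 and 35 to 124 in the other 5 embryos, whereas Hist1h4n had 13.3 CPM in it and 2.68 to 5.33 CPM in the others. For Hist1h4b and Hist1h3b, RPF was high in LOF replicates 2 and 3 (14.4 and 21.4 CPM, and 9.19 and 9.32 CPM) and lowest in LOF replicate 1 (4.52 and 2.92 CPM), with wild-type embryos between. Their RNA differed by at most 1.41-fold within a genotype. Of their counted positions, 11.6% and 3.74% had a window of their own. Whether the differences between embryos in the counts of Hist1h2ba, Hist1h4i, Hist1h4m, Hist1h4n and the other genes here lie in the level of the mRNA or in how the reads matched the reference copies was not tested.

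**Figure D4:**
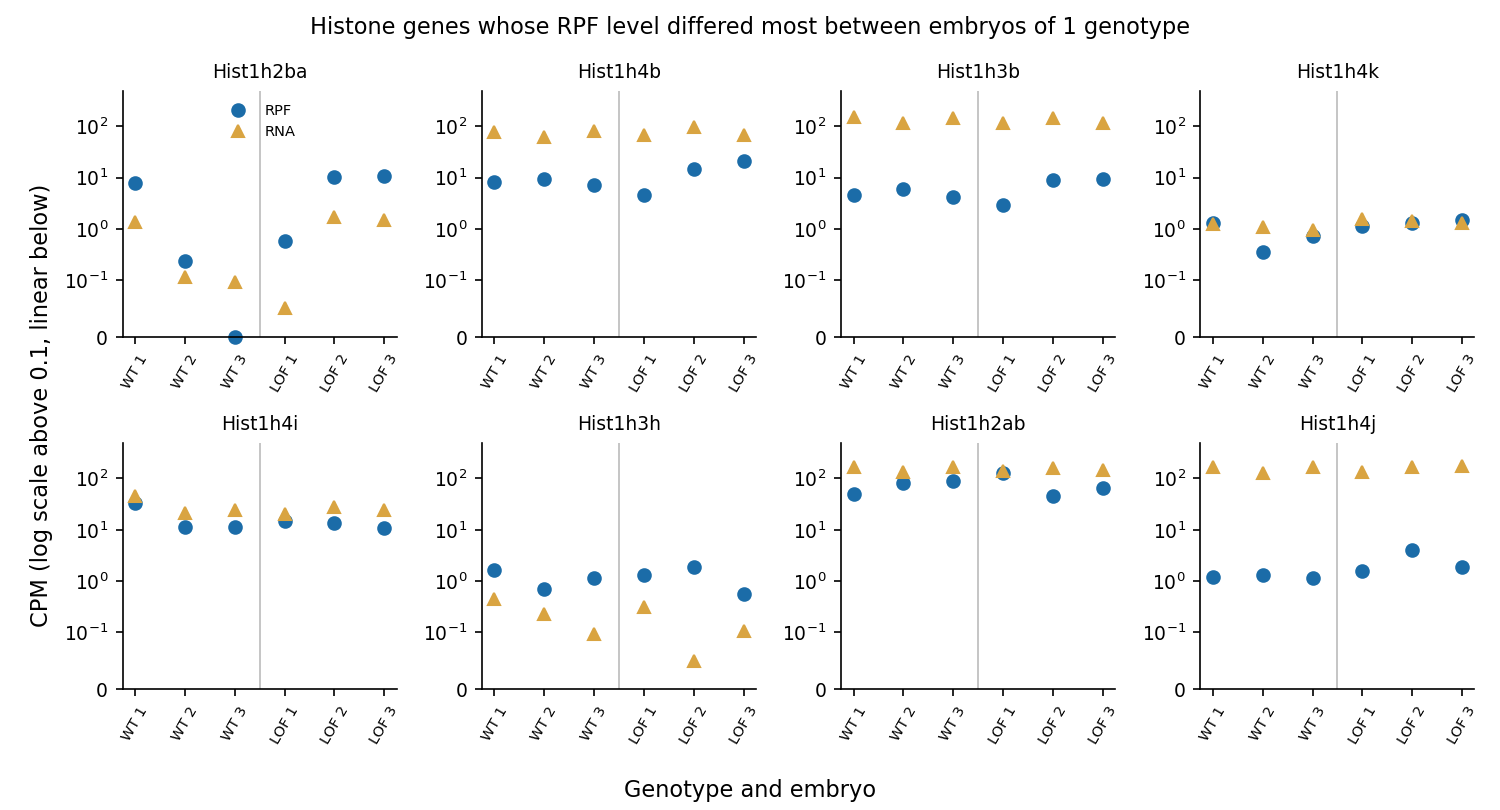
Level in each embryo (CPM, log scale above 0.1 and linear below) of the 8 histone genes whose RPF level differed most between embryos of 1 genotype, in RPF (blue circles) and RNA (orange triangles), with wild-type embryos left of the grey line and LOF embryos right of it. Hist1h2ba is near 0 in 3 embryos and about 10 CPM in RPF in the other 3, and Hist1h4i is highest in wild-type replicate 1.

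Levels of RPF over RNA were compared within wild-type embryos per length, as RPF CPM per kb of counted coding sequence over RNA CPM per kb of annotated transcript. Over all tested transcripts the median of its log2 was 0.75. Summed by type it was 2.63 ± 0.17 for H1 (SD, n = 3 embryos, above 97.6% of transcripts), 1.45 ± 0.15 for H2B (above 77.2%), 0.96 ± 0.20 for H4 (above 58.1%), 0.03 ± 0.21 for H2A (above 26.3%) and -1.85 ± 0.16 for H3 (above 2.18%). Each neighbour in this order was separated from the next by more than the sum of their SDs. The order was the same for the genes passing the filter, per whole coding sequence and with RNA per coding length, and changed where it was limited to genes or positions with windows of their own.

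Over genes with 50% or more of their windows to themselves, the value was 2.28 ± 0.11 for H2A, 3.21 ± 0.09 for H2B and 4.23 ± 0.15 for H4, with no H3 gene left. Counted per position with a window of its own, an alternative chosen after seeing the data, the values were 2.83 for H1, 1.52 for H2A, 2.93 for H2B, 0.26 for H3 and 2.42 for H4. H2A and H3 remained the lowest types in this count, at higher values than in the first order.

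The level also differed among genes of different annotated length. Of the 12 tested genes with 50% or more of their windows to themselves, 11 had a value. The log2 RPF/RNA was 1.66 for Hist2h2bb (381 nt), 1.42 for Hist2h2ab (444 nt), 1.25 for Hist1h1a (741 nt), 1.41 for Hist1h1b (743 nt) and 2.03 for Hist1h1t (912 nt). It was 2.22 for Hist1h1c (1560 nt), 4.34 for Hist2h4 (1630 nt), 2.18 for Hist1h1e (1930 nt), 3.35 for Hist3h2a (2146 nt), 4.13 for Hist4h4 (2863 nt) and 3.99 for Hist1h1d (7425 nt). All 6 genes of 1560 nt or more were above the 5 shorter ones, but among the 6 the level did not follow the length. Past the stem-loop shown above, the annotation ran on for 840 bases in Hist1h1c, 1153 in Hist1h1e, 1257 in Hist2h4, 1643 in Hist3h2a, 2445 in Hist4h4 and 4884 in Hist1h1d. With RNA taken per kb of coding length, also chosen after seeing the data, the same 11 genes lay between 0.51 (Hist1h1d) and 1.96 (Hist2h4).

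The extremes among the tested genes were both genes with little sequence of their own. Hist1h2af (chr13:23533906-23534304, plus strand), an H2A gene annotated with 1 base of 3′UTR and therefore without its stem-loop, had the highest level, 4.98 ± 0.23, from 33.5 ± 1.83 RPF CPM and 1.29 ± 0.21 RNA CPM. Hist1h4j (chr13:21735064-21735837, plus strand) had the lowest, -5.36 ± 0.30, from 1.21 ± 0.07 RPF CPM and 155 ± 22.8 RNA CPM. In LOF embryos Hist1h4j had 1.60, 4.07 and 1.90 RPF CPM (11, 35 and 20 counts), above the 11 to 13 counts of the wild-type embryos on the CPM scale (1.07 ± 0.38, adjusted p = 0.239 by edgeR). Without LOF replicate 2 its log2 fold change was 0.56.

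**Figure D5:**
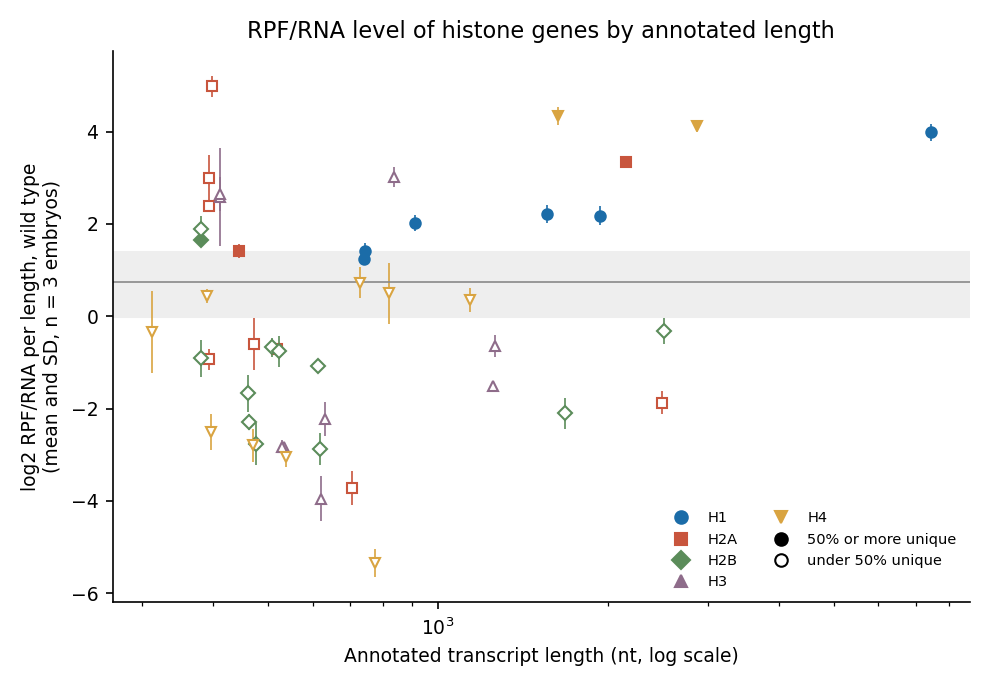
Log2 RPF/RNA per length in wild-type embryos (vertical axis, mean and SD, n = 3) of the tested histone genes against annotated transcript length (nt, log scale), with filled points for genes with 50% or more of their coding windows to themselves. The grey line and band are the median (0.75) and the quartiles of all tested transcripts, and the filled points run from 1.25 for Hist1h1a at 741 nt to 4.34 for Hist2h4 at 1630 nt.

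Genes that act on histone mRNAs were listed as a background to these values, 38 in all from SLBP and the U7 and cleavage complexes to the decay factors and histone chaperones, and 35 of them were tested. In RPF 0 passed by edgeR, with 5 of the 35 at an unadjusted p under 0.05 beside 13.7% of all transcripts. In RNA 2 of the 35 rose and 0 fell, a share near the 5.02% of all transcripts called. The 2 were Upf1, a helicase of RNA decay (0.20 ± 0.05, adjusted p = 0.0669 by edgeR), and Srrt, a partner of the cap-binding complex (0.21 ± 0.05, adjusted p = 0.0402). The list's median log2 fold change was 0.0059 in RPF and -0.014 in RNA. Slbp had 228 RPF CPM in wild-type and 238 CPM in LOF embryos on average, with every LOF embryo above every wild-type embryo (0.07 ± 0.06, adjusted p = 0.689 by edgeR), and overlapped in RNA (-0.05 ± 0.05, adjusted p = 0.624).

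The replication-independent histone genes, whose mRNAs are polyadenylated and made through the cell cycle, were listed beside them. Of 12 listed, 11 were tested and 0 passed in RPF by edgeR, with 2 of the 11 at an unadjusted p under 0.05 beside 13.7% of all transcripts. In RNA 1 of the 11 fell, H2afv (-0.15 ± 0.04, adjusted p = 0.0972 by edgeR), beside 5.02% of all transcripts called. Their median RPF log2 fold change was -0.05 and 4 of the 11 were above 0, beside 50.9% of all transcripts. The 2 with an unadjusted p under 0.05, named after their values were seen, H2afv (-0.31 ± 0.09, adjusted p = 0.175 by edgeR) and H2afy2 (-0.24 ± 0.09, adjusted p = 0.280 by edgeR), were both lower, with every LOF embryo below every wild-type embryo. Among the others the values were -0.013 ± 0.07 for H3f3a and 0.024 ± 0.06 for H3f3b, which encode the histone variant H3.3, -0.05 ± 0.08 for H2afz, -0.07 ± 0.08 for H1f0 and 0.13 ± 0.07 for H2afx, whose gene also gives a stem-loop form. None of these 5 passed (adjusted p = 0.465 to 0.959 by edgeR). Of 31 genes of S phase and DNA replication, all tested, 0 passed in RPF or RNA by edgeR, and 1 and 3 had an unadjusted p under 0.05, beside 13.7% and 17.0% of all transcripts, with a median log2 fold change of -0.0038 in RPF and -0.015 in RNA.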

How the data were processed

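The authors removed reads of rRNA, tRNA and snRNA with bowtie2, aligned the rest to canonical GENCODE transcripts of GRCm38/mm10, removed PCR duplicates with UMI-tools and deposited whole-number counts without normalization, from RPF reads with the A site in the coding sequence (without its first 15 and last 5 codons) and RNA reads on the whole transcript. RPF and fragmented RNA had both been depleted of rRNA and size-selected, and RNA was not described as poly(A)-selected. Transcripts were matched by identifier to GENCODE M21 (21976 of 22467 with the same version, 477 with another, 14 not matched). Counts were filtered as in the authors' methods (over 0.75 CPM in at least 3 RPF libraries, 12576 kept) and normalized by TMM separately for RPF and RNA. The test between genotypes was the quasi-likelihood test in edgeR 4.0.16 (R 4.3.3), Benjamini-Hochberg adjusted over all tested transcripts, at 0.1. CPM values are TMM-normalized. Uniqueness was taken over all transcripts of the table with 28-base (RPF) and 50-base (RNA) windows. Tests were checked on simulated counts. Alternatives used DESeq2 1.42.0, limma 3.58.1, sva 3.50.0, other filters, scalings and covariates, and each embryo left out.

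The genes, lists and naming rule were chosen with earlier results of these data known. Named were, per type, the 2 genes with the highest RPF, the gene with the largest share of its own windows, every gene called, the extremes of RPF/RNA, Rpl10a and listed genes. The 6 embryos came from several litters and were not pooled. RPF and RNA of 1 embryo share that embryo: their deviations from group means correlated at 0.19 to 0.40 in all 6 pairs, on log2(CPM + 1) over transcripts. No interval is given for counting error, which is largest for genes with about 10 counts.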

Additional observations from a re-analysis of the deposited data

How the results depend on the processing

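The number of histone genes called in RPF was 15 under limma-voom with surrogate variables (10.4% of all transcripts called), 0 with the Y-linked covariate (0.175%) and 0 with the replicate block (2.49%), and 0 to 7 with each embryo left out (0.0318% to 11.5%). In RNA it was 2 of 64 without the filter (3.51%), 0 with the Y-linked covariate (0.278%), 2 with the replicate block (4.20%) and 0 to 2 with each embryo left out (1.10% to 4.72%), and for RPF/RNA 0 throughout. Same-numbered embryos of the 2 genotypes are different embryos and their deviations correlated at -0.10 to 0.08, so the block pairs nothing. For RPF/RNA the block was the embryo and changed no call. Summed fold changes by type moved by less than 1 SD with RLE size factors, library totals, the genes passing the filter and, chosen after seeing the data, without the 8 genes that differed most between embryos.

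Wild-type log2 RPF/RNA moved with the length and genes used. Per whole coding sequence it was -0.21 for H2A, 1.20 for H2B, -2.08 for H3 and 0.65 for H4. For genes passing the filter H2A was 0.99, and for genes with 50% or more own windows H2A was 2.28, H2B 3.21 and H4 4.23. Per position with its own window it was 2.83 for H1, 1.52 for H2A, 2.93 for H2B, 0.26 for H3 and 2.42 for H4. With RNA per coding length, like the former chosen after seeing the data, it was 0.87 for H1, -0.79 for H2A, 0.29 for H2B, -2.84 for H3 and -0.47 for H4.

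The signs that turned were of changes that had not passed. With limma-voom the RNA change was -0.012 for Hist1h1t, the RPF change -0.00527 for Hist1h2ab, -0.022 for Hist1h3e and -0.00465 for Hist3h2a, and the RPF/RNA change -0.022 for Hist3h2a. With surrogate variables RPF was -0.12 for Hist1h2ab, -0.12 for Hist1h3e and -0.0499 for Hist3h2a, and RPF/RNA -0.28 for Hist1h2ab and -0.15 for Hist3h2a. With the Y-linked covariate RPF was -0.28 for Hist1h2ab, -0.37 for Hist1h3e and -0.10 for Hist3h2a, RNA -0.16 for Hist1h1t, 0.019 for Hist1h2ab, -0.54 for Hist1h2af, 0.088 for Hist1h2bb and 0.094 for Hist1h3c, and RPF/RNA -0.29 for Hist1h2ab, 0.11 for Hist1h2af and -0.16 for Hist3h2a. Without the filter RPF was -0.0026 for Hist1h3e and -0.000476 for Hist3h2a, and RPF/RNA -0.017 for Hist3h2a. With the replicate block RPF was -0.000701 for Hist1h3e and RPF/RNA -0.00337 for Hist3h2a. With RLE size factors RPF/RNA was -0.00234 for Hist3h2a, and with the filter on both libraries RNA was -0.00296 for Hist1h1t. The cause was not tested.

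With each embryo left out, RNA ran from -0.049 to 0.10 for Hist1h1a, -0.021 to 0.15 for Hist1h1b, -0.13 to 0.16 for Hist1h1t, -0.34 to 0.53 for Hist1h2af, -0.15 to 0.0027 for Hist1h2bb, -0.18 to 0.067 for Hist1h3a, -0.0697 to 0.15 for Hist1h4j, -0.055 to 0.048 for Hist3h2a and -0.0196 to 0.11 for Hist4h4. RPF ran from -0.40 to 0.36 for Hist1h2ab, -0.0105 to 0.25 for Hist1h3a, -0.10 to 0.20 for Hist1h3e and -0.12 to 0.10 for Hist3h2a. RPF/RNA ran from -0.36 to 0.48 for Hist1h2ab, -0.92 to 0.063 for Hist1h2af, -0.027 to 0.22 for Hist2h2bb, -0.088 to 0.15 for Hist2h4 and -0.15 to 0.13 for Hist3h2a.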
